A study of Mus musculus with 6 samples.

Results

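The 10 core circadian clock genes *Arntl* (also called *Bmal1*), *Clock*, *Npas2*, *Per2*, *Per3*, *Cry1*, *Cry2*, *Nr1d1*, *Nr1d2* and *Dbp* were followed in satellite cells, the resident stem cells of muscle fibres. They were chosen by gene symbol, with earlier results of these data known. All 10 were among the 17152 genes tested, of 54115 genes with a transcript in the files. RNA was sequenced from 3 Pax7WT and 3 Pax7KR samples of strain C57BL/6J. Pax7KR mice carry an arginine in place of a lysine of PAX7 that is acetylated in the unmodified protein. The change was introduced by delivering Cas9 to zygotes, so it is carried by the whole animal and not by satellite cells alone. The cells came from uninjured hindlimb muscle and received no treatment. They were sorted directly from the tissue by α7-INTEGRIN and CD34 on their surface and by the lack of CD45, SCA-1, CD11b and CD31, and 15 ng of RNA entered a directional library kit. The study used young adult mice except in its experiments on aged mice. Clock genes vary with the hour of collection, which is not given in the sources used here, and neither is the sex of the animals.

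The mammalian clock is a feedback loop of transcription that runs in most cells, muscle included. A dimer of ARNTL with CLOCK or its relative NPAS2 binds E-box sequences and activates the *Per*, *Cry*, *Nr1d* and *Dbp* genes. PER and CRY proteins then inhibit the dimer, and NR1D1 and NR1D2 (REV-ERB alpha and beta) repress *Arntl* through ROR elements. DBP is an output factor that binds D-boxes in further genes. Over a day *Dbp* and *Nr1d1* transcripts peak at the opposite phase to *Arntl*.

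These elements can be read in the promoters, and the windows shown here are those in which a member held one. The sequences are from RefSeq on build GRCm38.p6 and cover 250 bases before to 50 bases after a start site. Entries matched 9 of the 10 genes, and *Per2* had none. Capitals mark the element, each window is written 5′ to 3′ on the strand of its gene, and all other bases are in lower case.
Arntl, chr7:113207530-113207558, plus strand, ROR element: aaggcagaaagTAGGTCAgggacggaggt
Cry1, chr10:85185089-85185153, minus strand, E′-box and E-box: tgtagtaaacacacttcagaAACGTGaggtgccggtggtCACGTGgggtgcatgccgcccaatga
Cry2, chr2:92434210-92434255, minus strand, E′-box: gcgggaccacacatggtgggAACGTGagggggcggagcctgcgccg
Nr1d1, chr11:98775380-98775425, minus strand, E′-box: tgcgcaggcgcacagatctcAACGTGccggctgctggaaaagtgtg
Per3, chr4:151044796-151044890, minus strand, D-boxes: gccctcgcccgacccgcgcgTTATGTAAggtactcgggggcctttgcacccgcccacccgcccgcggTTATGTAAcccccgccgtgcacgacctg

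The letters searched on both strands were CACGTG for the E-box, CACGTT for the E′-box, TTATGTAA or TTACGTAA for the D-box, and TAGGTCA or TGGGTCA for the ROR element. The E-box is its own reverse complement and shares no match with the E′-box. The 9 genes had 12 promoters in the table. The E-box was in 1 of the 12, that of *Cry1*, and in 7.15% of all 32851 promoters. The E′-box was in 3 of the 12, those of *Cry1*, *Cry2* and *Nr1d1*, and in 4.68% of all promoters. Among the 22 promoters of other genes of the loop, 5 held the E-box and 1 the E′-box. The D-box lay in the *Per3* window in 2 copies and in 1.06% of all promoters. The ROR element lay 30 bases after the *Arntl* start site and in 6.45% of all promoters. *Clock*, *Npas2*, *Nr1d2* and *Dbp* held none of these letters within the window.

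Depth ran from 17822367 to 27908054 estimated reads per library, and no pair of libraries agreed within sampling noise. *Pax7* had 1666, 1506 and 1480 CPM (reads of the gene relative to the library's reads after TMM scaling) in Pax7WT and 1410, 1460 and 1637 CPM in Pax7KR, which does not show the altered residue. All 8 satellite cell markers passed the filter, with 6262 to 6888 CPM in sum, against 3.75 to 5.49 CPM for 4 immune markers, while *Cd3e* had 0 reads in all libraries. Summed endothelial markers were at 55.5, 75.1 and 118 CPM in Pax7WT and 107, 136 and 73.4 CPM in Pax7KR. By fitted change 6 of 6 were higher in Pax7KR, beside 8399 of 17152 genes tested, with 0 of the 6 past the test. Summed fibro-adipogenic markers ran from 608 to 685 CPM, of which *Dpt* made up a mean of 608, against 2.89 for *Pdgfra*, 8.10 for *Ly6a* and 32.5 for *Dcn*. Smooth muscle and pericyte markers summed to 181 to 268 CPM, with *Acta2* at a mean of 132. By fitted change 4 of 4 of them were lower in Pax7KR, with 0 past the test. Glial markers summed to 24.2 to 45.8 CPM and myofibre markers to 32.3 to 48.0 CPM. The Pax7KR replicate 2 library stood apart in its Y-linked genes, at 131 CPM in sum against 299 to 355 CPM in the other 5. By fitted change 4 of 4 Y-linked genes were lower in Pax7KR, with 0 past the test. *Xist*, with only 10 to 47 reads per library, had 1.47, 0.960 and 2.29 CPM in Pax7WT and 0.437, 0.880 and 0.946 CPM in Pax7KR. Its groups did not overlap, beside 5.19% of all genes with Pax7KR below, at an edgeR adjusted p of 0.992. The part of the other cell types and of the Pax7KR replicate 2 library in the clock values was not tested. The values of *Per2*, *Dbp* and the relations to *Dbp* are also given without that library. In bulk samples fewer cells of a type and less RNA per cell cannot be told apart.

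On TPM, which is per length and so compares genes, the clock genes spanned a wide range of levels with the repressor *Nr1d1* at the top and the repressor *Cry1* at the bottom. Mean TPM over the 6 libraries was 260 ± 25.3 (SD, n = 6) for *Nr1d1*, which placed it at rank 422 and in the top 2.46% of genes tested. The output gene *Dbp* followed at 161 ± 18.6 and *Nr1d2* at 90.6 ± 9.44. Below them *Cry2* stood at 38.9 ± 2.72, *Npas2* at 34.8 ± 6.13, *Clock* at 29.2 ± 2.10, *Per2* at 28.1 ± 3.23, *Arntl* at 26.6 ± 2.59 and *Per3* at 26.1 ± 2.50 TPM. *Cry1*, at 10.1 ± 2.33 TPM, ranked 9046. Each step from *Nr1d1* through *Dbp* and *Nr1d2* to *Cry2*, and from *Per3* to *Cry1*, held in 6 of 6 libraries. From *Cry2* through *Per3* each gene and the next differed by less than 1 SD, and the order held in 3 to 5 of 6 libraries, so these neighbours did not differ beyond their spread. In the leading transcript of each gene alone, the outer places stayed the same while *Per2*, at 28.1 TPM, came after *Cry2* and *Clock* came just above *Cry1*, which was at 9.23 TPM.

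**Figure D1:**
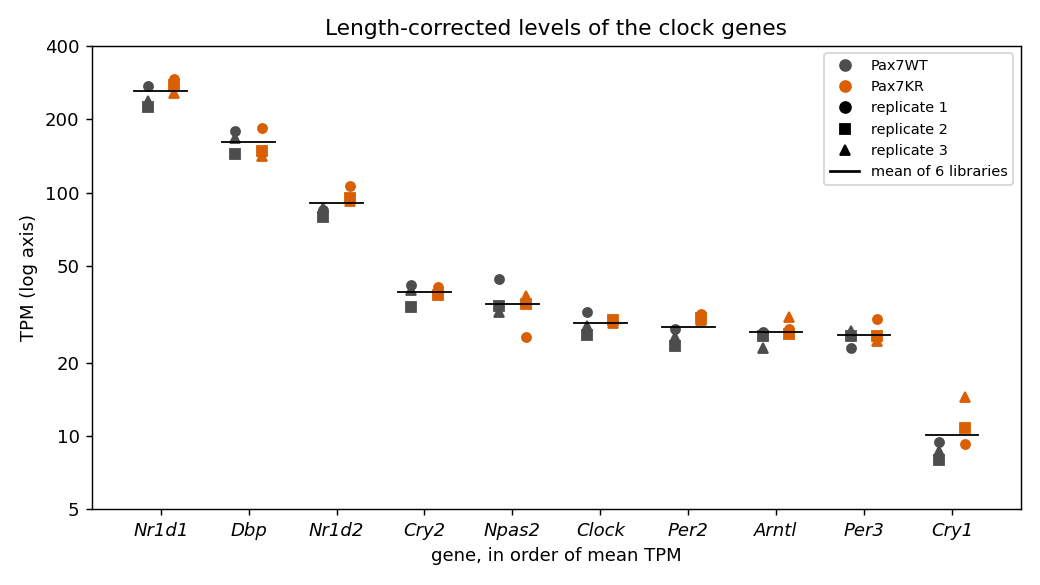
TPM on a log axis for each clock gene, in order of the mean over 6 libraries (black line). Points are libraries, grey for Pax7WT and orange for Pax7KR, and symbols give the replicate. *Nr1d1* (mean 260), *Dbp* (161) and *Nr1d2* (90.6) lie apart from the 6 genes between 26.1 and 38.9, and *Cry1* (10.1) lies lowest.

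The comparison of Pax7KR with Pax7WT asks how transcript levels differed in satellite cells whose PAX7 lacks this acetylated residue. None of the 10 clock genes passed an adjusted p of 0.1 in edgeR's quasi-likelihood test, against 0% (0 of 17152) of all genes tested. The smallest adjusted p among the 10 was 0.992, and among all genes 0.302. DESeq2 called 0 of the 10, with 1 at an unadjusted p under 0.05, and 30 genes in all. At an unadjusted p under 0.05, edgeR had 1 of the 10 clock genes, *Per2*, beside 4.68% (803) of all genes. By fitted change 6 were higher and 4 lower in Pax7KR, with a median log2 fold change of 0.03, beside -0.0037 over all genes. The 3 Pax7KR values lay above the 3 Pax7WT values for 1 of the 10, *Per2*, beside 5.14% of all genes, and below them for 0 of the 10, beside 5.19% of all genes. With 10 genes, a count of 1 does not set them apart from these shares.

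*Arntl*, *Clock* and *Npas2* encode the activators. *Arntl* (ENSMUSG00000055116, GRCm38 chr7:113207465-113314126) had 42.5, 40.9 and 35.3 CPM in Pax7WT and 37.7, 40.3 and 45.1 CPM in Pax7KR. The highest library was a Pax7KR and the lowest a Pax7WT library, with overlap between the genotypes. Its log2 fold change was 0.05 (SE 0.094, 95% interval -0.15 to 0.25, edgeR adjusted p = 0.998). *Clock* (ENSMUSG00000029238, chr5:76209868-76304792) had 144, 122 and 127 CPM in Pax7WT and 126, 127 and 129 CPM in Pax7KR. All Pax7KR libraries fell inside the range of Pax7WT, where replicate 1 was highest. Its log2 fold change was -0.04 (SE 0.068, interval -0.19 to 0.11, edgeR adjusted p = 0.998).

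*Npas2*, which can take the place of CLOCK in the dimer, varied most. It had 79.1, 62.3 and 56.9 CPM in Pax7WT and 50.5, 63.4 and 72.9 CPM in Pax7KR (ENSMUSG00000026077, chr1:39193731-39363236). Both genotypes held a high and a low library, and the groups overlapped almost fully. The log2 fold change was -0.09 with an SE of 0.176, and its interval of -0.52 to 0.34 was the widest of the 10. Its pooled SD within genotype was 0.254 on the log2 scale, at percentile 96.1 among 7651 genes with a mean of 20 CPM or more and 68.8 among all genes tested. Over the 6 libraries, the highest library held 1.57 times the CPM of the lowest.

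Among the inhibitors, *Per2* was the clock gene whose groups did not overlap. *Per2* (ENSMUSG00000055866, chr1:91415982-91459324) had 95.1, 82.1 and 88.3 CPM in Pax7WT and 105, 101 and 102 CPM in Pax7KR. The lowest Pax7KR library was above the highest Pax7WT library, and the spread was small in Pax7KR, with means of 88.5 ± 6.47 and 103 ± 1.60 CPM (SD, n = 3 each). The log2 fold change was 0.21 (SE 0.067, interval 0.07 to 0.36), a fold of 1.16. The unadjusted edgeR p was 0.0068 and the adjusted p 0.992, so the difference did not pass the test over all genes. A two-sided exact permutation test gave p = 0.1, the smallest that 3 against 3 allow. In TPM, which rescale the same reads without TMM, the values were 27.4, 23.4 and 25.5 in Pax7WT and 31.7, 30.5 and 30.0 in Pax7KR. The groups also stood apart on that scale, but the share of all genes that do so was not computed. Leaving out 1 library at a time gave log2 fold changes from 0.16 without Pax7WT replicate 2 to 0.27 without Pax7WT replicate 1, and it was 0.22 without Pax7KR replicate 2.

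*Per3* (ENSMUSG00000028957, chr4:151003652-151044665), a relative of *Per2*, had 77.8, 82.7 and 91.9 CPM in Pax7WT and 90.3, 84.6 and 80.5 CPM in Pax7KR. The groups covered nearly the same range, and the log2 fold change was 0.02 (SE 0.075, interval -0.15 to 0.18, edgeR adjusted p = 0.998). *Cry1* (ENSMUSG00000020038, chr10:85131700-85185064), a partner of PER proteins, had 15.6, 13.3 and 12.7 CPM in Pax7WT and 14.5, 17.0 and 17.4 CPM in Pax7KR. Replicate 1 of each genotype crossed the other group, while the other Pax7KR libraries were the highest of the 6. The log2 fold change of 0.23 (SE 0.125, interval -0.04 to 0.50) was the largest of the 10, at an edgeR p of 0.0844 and an adjusted p of 0.992. It rests on the fewest reads of the 10, from 235 to 424 per library.

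*Cry2* (ENSMUSG00000068742, chr2:92403646-92434043) had 91.6, 76.2 and 84.2 CPM in Pax7WT and 80.6, 79.4 and 83.1 CPM in Pax7KR. As for *Clock*, all Pax7KR values fell inside the range of Pax7WT. The log2 fold change was -0.05 (SE 0.073, interval -0.21 to 0.11, edgeR adjusted p = 0.998).

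*Nr1d1* and *Nr1d2* encode the heme-binding nuclear receptors that repress *Arntl*. *Nr1d1* (ENSMUSG00000020889, chr11:98767932-98775333) had 418, 348 and 359 CPM in Pax7WT and 426, 405 and 381 CPM in Pax7KR. Pax7WT replicate 1 lay among the Pax7KR libraries and the other Pax7WT libraries below them. Its log2 fold change was 0.11 (SE 0.077, interval -0.06 to 0.27, edgeR adjusted p = 0.992). *Nr1d2* (ENSMUSG00000021775, chr14:18204054-18239127) had 199, 170 and 198 CPM in Pax7WT and 211, 198 and 186 CPM in Pax7KR. With overlapping groups, the log2 fold change was 0.07 (SE 0.074, interval -0.09 to 0.23, edgeR adjusted p = 0.998).

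The scale mattered for *Nr1d2*. In TPM, which carry no TMM scaling, it had 84.9, 79.3 and 86.1 in Pax7WT and 106, 95.3 and 92.0 in Pax7KR. On this scale the groups did not overlap, and the share of all genes that do so was not computed. *Clock* and *Cry2*, lower in Pax7KR by fitted change, had higher mean TPM there. Their means were 28.8 and 38.5 TPM in Pax7WT and 29.6 and 39.3 TPM in Pax7KR. *Npas2* and *Dbp* were lower in Pax7KR on both scales. When edgeR took the average length of transcripts as an offset, the log2 fold change of *Nr1d2* was 0.17 (unadjusted p = 0.0435, adjusted p = 0.962). With this offset 848 of 17152 genes had an unadjusted edgeR p under 0.05. Under the same offset *Npas2* was at -0.23 and *Cry1* at 0.34, and *Per2* stayed at 0.21 with an adjusted p of 0.962.

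*Dbp*, the output factor, had the lowest fold change of the 10. *Dbp* (ENSMUSG00000059824, chr7:45705088-45710203) had 147, 116 and 135 CPM in Pax7WT and 139, 111 and 111 CPM in Pax7KR. The lowest values were in Pax7KR and the highest in Pax7WT, but replicate 1 of Pax7KR exceeded 2 of the 3 Pax7WT libraries. The log2 fold change was -0.14 (SE 0.111, interval -0.39 to 0.11, edgeR adjusted p = 0.998), and means were 133 ± 15.5 and 120 ± 16.1 CPM (SD, n = 3 each). Without Pax7KR replicate 2 the log2 fold change was -0.08. Leaving out 1 library at a time moved it from -0.26 without Pax7KR replicate 1 to -0.06 without Pax7WT replicate 1.

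**Figure D2:**
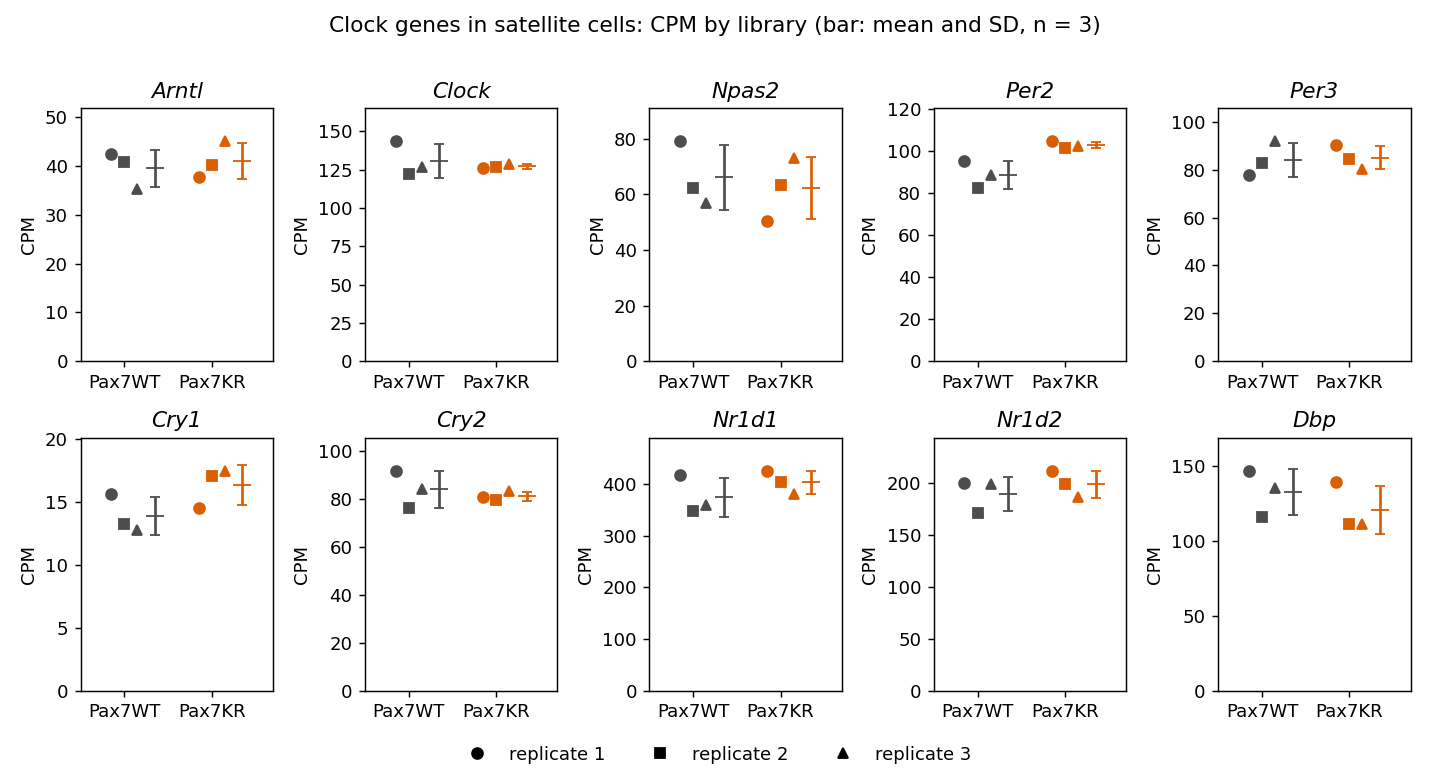
CPM of each clock gene in each library, on axes that start at 0, with grey for Pax7WT and orange for Pax7KR, symbols for the replicate and the mean with its SD (n = 3) beside the points. Only *Per2* has its 3 Pax7KR points (101 to 105 CPM) above its 3 Pax7WT points (82.1 to 95.1 CPM).

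How tight the clock genes were within genotypes depended on the genes set beside them. The median of their within-genotype SDs was 0.114 on the log2 scale, beside 0.0926 for genes with a mean of 20 CPM or more and 0.162 for all genes tested. Among all genes tested *Npas2* was at percentile 68.8, *Dbp* at 53.9, *Cry1* at 45.0 and *Per2*, the least variable of the 10, at 17.1. Among genes with a mean of 20 CPM or more, which leaves out *Cry1*, *Dbp* was at percentile 89.0 and *Per2* at 35.6. Over the 6 libraries the highest CPM was 1.18 to 1.57 times the lowest. Pax7WT replicate 1 held the highest value of its genotype for 9 of the 10 genes, all but *Per3*, and Pax7WT replicate 2 held the lowest for 6 of the 10.

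The clock couples *Arntl* and *Npas2* against *Dbp* and *Nr1d1* with *Dbp*, and these 3 relations were computed over the 6 libraries on log2(CPM + 0.5). *Arntl* against *Dbp* had a Pearson r of -0.43 (exact permutation p = 0.389, adjusted 0.583) and a Spearman rho of -0.14 (exact permutation p = 0.803, adjusted 0.919). *Npas2* against *Dbp* had r = -0.13 (exact permutation p = 0.808, adjusted 0.808) and rho = -0.09 (exact permutation p = 0.919, adjusted 0.919). *Nr1d1* against *Dbp* had r = 0.41 (exact permutation p = 0.381, adjusted 0.583) and rho = 0.43 (exact permutation p = 0.419, adjusted 0.919). None of the 3 passed a permutation test. Without the libraries farthest from the median of *Dbp*, Pax7WT replicate 1 and Pax7KR replicate 2, r was -0.91, -0.93 and 0.48 over the 4 that remain. Without Pax7WT replicate 1 alone it was -0.83, -0.89 and 0.20, and without Pax7KR replicate 2 alone -0.49, -0.15 and 0.63. Without Pax7KR replicate 1 alone it was -0.34, 0.23 and 0.25, and without Pax7KR replicate 3 alone -0.17, 0.10 and 0.41. The r thus moved either way with the library left out, and the part of any 1 library was not tested. Within genotypes, as deviations from the genotype mean, r was -0.38, -0.24 and 0.81. A permutation over all pairings gave the last a p of 0.0722, adjusted 0.217, so it did not pass. That p is not exact, since it exchanges deviations between genotypes that were centred apart.

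Per library, *Dbp* exceeded *Arntl* in TPM by 2.75, 2.48 and 2.88 on the log2 scale in Pax7WT and by 2.74, 2.50 and 2.20 in Pax7KR. The lowest ratio was in Pax7KR replicate 3, the library with the most *Arntl*, and the groups overlapped. *Clock* had 0.732, 0.761 and 0.871 of the TPM of its relative *Npas2* in Pax7WT and 1.16, 0.857 and 0.772 of it in Pax7KR. Pax7KR replicate 1, the library with the least *Npas2*, was the one in which *Clock* was above it.

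The genes most like *Arntl* over the 6 libraries, by Pearson r of log2(CPM + 0.5) among 13278 genes with a mean of 1 CPM or more, were *Ubxn2a* (0.99), *Smim20* (0.99), *Gm36298* (0.98), *Cyp2u1* (0.98) and *Paxx* (0.97). With 6 libraries 89 genes reached an r over 0.9. Among the clock genes *Npas2* was the most like *Arntl*, at r = 0.81 and rank 347, and *Cry1* followed at 0.73 and rank 648. *Per3* was the least like it, at -0.91 and rank 13212. The genes most like *Dbp* were *Acp6* (0.99), *Gm13179* (0.99), *Coprs* (0.98), *Prkaca* (0.98) and *Cdk13* (0.98), and 100 genes were over 0.9. Of the clock genes *Cry2* (0.66) and *Nr1d2* (0.60) were most like *Dbp*. These are descriptions over libraries that share depth and preparation, and no p is given.

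Most clock genes drew their reads from 1 annotated transcript. The leading transcript carried 100% of the reads of *Per2*, 99.1% of *Cry1*, 99.0% of *Nr1d1*, 98.3% of *Npas2*, 93.0% of *Nr1d2* and 90.5% of *Cry2*, as means over the 6 libraries. The share was lower for *Per3* (74.1%), *Dbp* (73.0%) and *Arntl* (71.8%), and lowest for *Clock* (49.4%, from 44.4% to 53.4%). In *Per3* the retained-intron transcript Per3-205 held 17.7% to 23.5% of the reads in every library.

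In *Arntl* the second transcript, Arntl-206, held 27.5%, 27.6% and 29.5% of the reads in Pax7WT and 16.2%, 8.73% and 24.1% in Pax7KR. The shares of the genotypes did not overlap. Of 41 transcripts of the 10 genes, 39 of them with reads, 5 had shares that did not overlap, the others being Dbp-202, Npas2-201, Npas2-203 and Clock-202. The same share over all transcripts was not computed, so this count does not set them apart. Npas2-201 and Npas2-203 together held nearly all *Npas2* reads, so their shares mirror each other. Dbp-202 held 7.43%, 9.62% and 7.83% of the *Dbp* reads in Pax7WT and 11.1%, 11.4% and 11.8% in Pax7KR. These transcripts were singled out after their values were seen, and their shares were not tested. In Pax7KR replicate 2 the leading transcript, Arntl-201, took 88.6% of the reads, against 66.1% to 75.5% in the other libraries. These shares are salmon's estimates for transcripts that overlap each other, so reads common to several are split by its model.

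**Figure D3:**
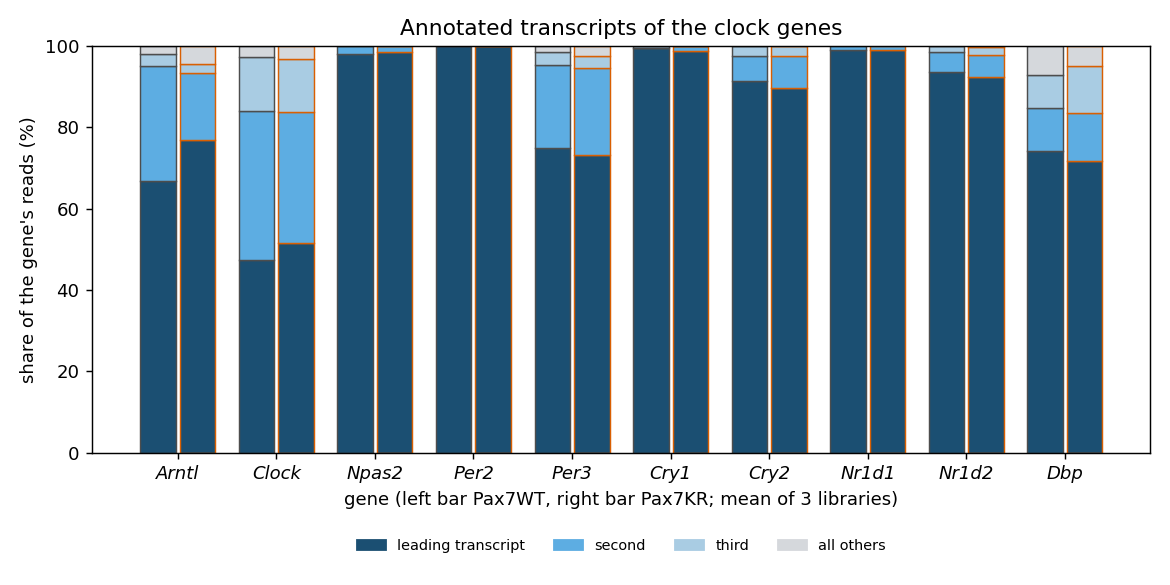
Share of each clock gene's estimated reads on its annotated transcripts, in percent, as the mean of 3 libraries with Pax7WT as the left and Pax7KR as the right bar. *Per2*, *Cry1*, *Nr1d1* and *Npas2* are carried almost wholly by the leading transcript, and *Clock* (49.4% over all libraries) is split.

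Sequence shared with other genes could move reads between them. Of the 31-base sequences of each gene's transcripts, none occurred on the same strand in another gene for *Arntl*, *Npas2*, *Per2*, *Cry1*, *Nr1d1* and *Dbp*. *Nr1d2* shared 9.51% with other genes, of which AC170187.1 shared the most and had 0 reads in all libraries. On the reverse strand *Dbp* shared 16.9% with other genes, of which *Sphk2*, at 531 to 923 reads per library, shared the most. *Nr1d1* shared 7.85% there, the most with *Thra*, which had 5552 to 8158 reads. The kit keeps strand, but the strand setting of the counting is not given in the sources used here, so the values of these overlapping pairs are uncertain to that extent.

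The rest of the loop was read from 23 further genes of its regulators, kinases, ligases and outputs, all of which were tested. Of these 12 were higher and 11 lower in Pax7KR by fitted change, with a median log2 fold change of 0.0037, and 0 passed the adjusted p of 0.1 in edgeR or in DESeq2. An unadjusted edgeR p under 0.05 was reached by 2 of the 23, both higher, beside the 4.68% of all genes. The 3 Pax7KR values lay above the 3 Pax7WT values for 1 of the 23, beside 5.14% of all genes, and below them for 0, beside 5.19%. That 1 was *Rora*, an activator of *Arntl* through ROR elements, and a count of 1 does not set the 23 apart. *Rora* is named because its values were seen to stand apart. *Rora* had 217, 191 and 211 CPM in Pax7WT and 224, 238 and 218 CPM in Pax7KR, so the highest Pax7WT and lowest Pax7KR library were almost level. Its log2 fold change was 0.14, at an edgeR p of 0.0581.

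*Wee1*, a cell cycle kinase gene under clock control, had 18.3, 20.3 and 17.7 CPM in Pax7WT and 28.2, 28.1 and 19.2 CPM in Pax7KR. Pax7KR replicate 3 lay within the Pax7WT range and the other Pax7KR libraries well above it. The log2 fold change was 0.43 (SE 0.142, edgeR adjusted p = 0.992). *Wee1* was called, with an edgeR adjusted p of 0.0448, only when genes with few reads were kept in the fit, and it was not called in the other alternatives. *Fbxw11*, a ligase subunit that marks PER proteins for destruction, had 86.9, 77.9 and 76.6 CPM in Pax7WT and 92.1, 95.2 and 85.3 CPM in Pax7KR. The groups overlapped in 1 pair of libraries, and the log2 fold change was 0.18 (SE 0.072, edgeR adjusted p = 0.992).

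Of the largest fitted changes among the 23, *Rorb* at 0.52 (SE 0.62) rested on 3 to 15 reads per library and was at -0.33 with the length offset. *Usp2*, a deubiquitinase gene of the output, was at -0.30 (SE 0.314) with 85.3, 117 and 147 CPM in Pax7WT and 85.0, 73.1 and 125 CPM in Pax7KR, and its groups overlapped. *Per1*, which belongs to the same family as *Per2* and *Per3*, had 329, 312 and 444 CPM in Pax7WT and 363, 376 and 384 CPM in Pax7KR. All its Pax7KR values lay inside the Pax7WT range, and its log2 fold change was 0.05 (SE 0.127, edgeR adjusted p = 0.998).

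**Figure D4:**
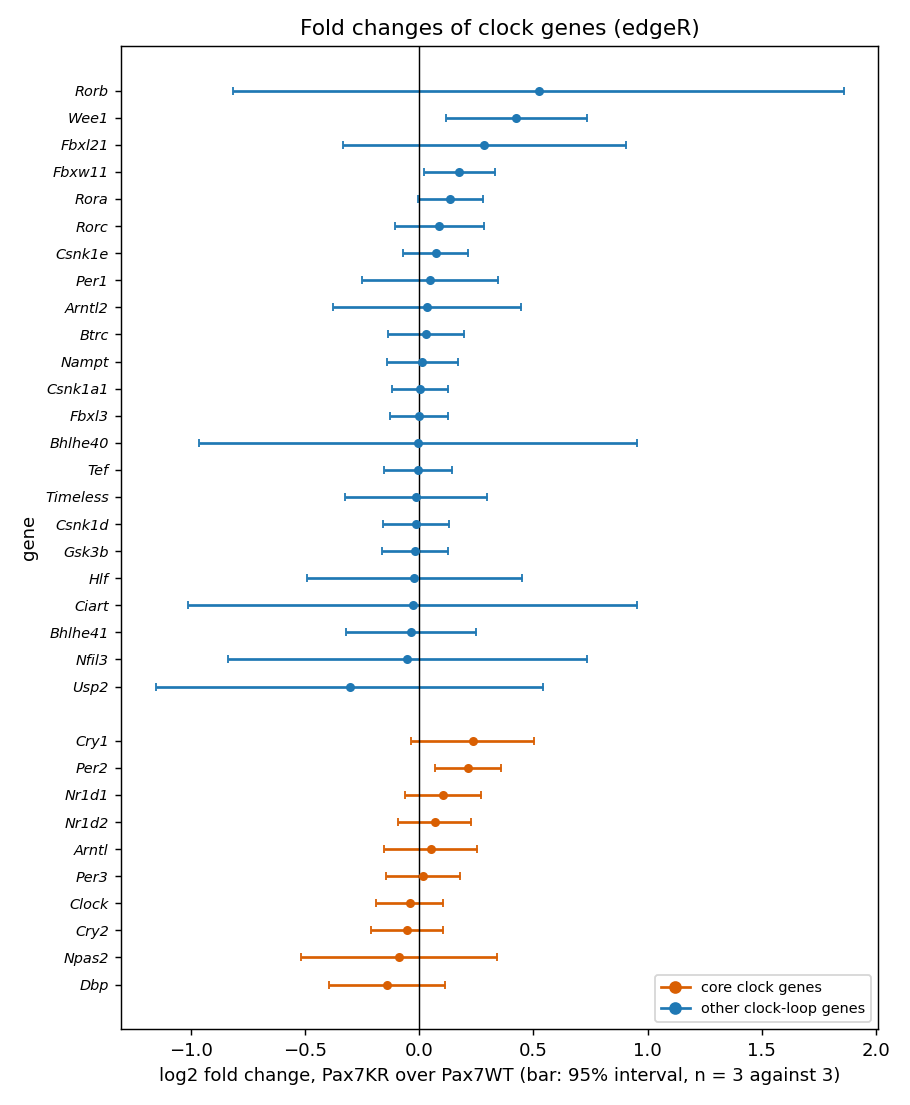
Log2 fold change of Pax7KR over Pax7WT from edgeR, with its 95% interval, for the 10 core clock genes (orange) and the 23 other genes of the loop (blue), each set in order of its value. Among the core genes only the interval of *Per2* (0.07 to 0.36) lies to one side of 0, and no gene drawn passed the adjusted p of 0.1.

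*Per1* and *Per2* also respond to glucocorticoids, and glucocorticoid-responsive genes were therefore read beside them. Of 12 such genes, *Per1* among them, 5 were higher and 7 lower in Pax7KR, with a median log2 fold change of -0.08. With all libraries in edgeR 0 passed the adjusted p of 0.1. Their summed level was 4680, 4064 and 5478 CPM in Pax7WT and 4115, 4895 and 4701 CPM in Pax7KR. *Fkbp5*, a co-chaperone gene of the glucocorticoid receptor, had 47.3, 60.8 and 55.6 CPM in Pax7WT and 116, 142 and 69.6 CPM in Pax7KR, and *Zbtb16* had 36.6, 53.6 and 48.1 against 100, 114 and 62.8 CPM. Both had groups that did not overlap, at log2 fold changes of 1.01 and 1.00 and edgeR adjusted p of 0.992 each. They were the 2 of the 12 with all Pax7KR values above Pax7WT, beside 5.14% of all genes. Among the 7 lower genes *Sgk1* had the largest change, at -0.38 (SE 0.196, edgeR adjusted p = 0.992). *Fkbp5* and *Zbtb16* were called by DESeq2 with the length offset (adjusted p = 7.21e-06 and 0.000818) and by edgeR without Pax7KR replicate 3 (adjusted p = 0.0109 and 0.0817). The list's part in the *Per2* values was not tested.

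Immediate early genes, which rise as cells are isolated, summed to 34597, 18140 and 32365 CPM in Pax7WT and to 25989, 30429 and 27602 CPM in Pax7KR. Of 12 genes 6 were higher and 6 lower by fitted change, and 0 passed the test. Their sum was lowest in Pax7WT replicate 2, the library with the lowest value of its genotype for 6 of the 10 clock genes. Without it the log2 fold change was 0.16 for *Per2*, 0.06 for *Nr1d1* and -0.0025 for *Nr1d2*. It was -0.23 for *Dbp*, -0.0883 for *Clock* and -0.12 for *Cry2*, none of them past the edgeR test. The part of the immediate early genes and of Pax7WT replicate 2 in the clock values was not tested.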

How the data were processed

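RNA-sequencing libraries of freshly isolated satellite cells were assigned to genotype and replicate from their labels. The authors quantified paired reads with salmon (version 1.3.0 in the submitters' processing notes) against GENCODE transcripts of GRCm38, using the genome sequence as decoy. The deposited files give estimated counts, TPM and effective lengths per transcript, as the authors' salmon runs wrote them. Their table of the genotype comparison (DESeq2 version 1.28.1 in those notes) holds fold changes and p-values and was not used. Here the deposited estimated counts were summed per gene through an older GENCODE annotation of this build, which matched 139791 of 140992 transcripts (the others held 0.606% of reads), and were rounded to whole numbers. The deposited TPM were summed per gene. Genes needed at least 5 reads in at least 2 libraries, and edgeR 4.0.16 (TMM, robust quasi-likelihood test) tested them on genotype alone, with Benjamini-Hochberg adjustment over all 17152 genes and the threshold of 0.1 of the study. Standard errors came from the fold change and the F statistic. DESeq2 (version 1.42.0, in R version 4.3.3) was an alternative, and other steps used scipy 1.17.1 under Python 3.11.15. Steps were checked on simulated data. The labels call the samples biological replicates.

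All 10 clock genes are named. Of the other loop genes, those with an unadjusted p under 0.05 and the 3 with the largest absolute fold change are named. *Per1*, *Rora* and genes of the marker, glucocorticoid and immediate early lists are named where a value stands beside a result. The 5 genes most like *Arntl* and *Dbp* are named by Pearson r. The members and lists were chosen with earlier results of these data known.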

Additional observations from a re-analysis of the deposited data

How the results depend on the processing

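The alternatives were DESeq2, DESeq2 and edgeR with average transcript length as an offset, 2 other normalizations, other filters, edgeR without robust shrinkage, a threshold of 0.05, a replicate block and leaving out each library in turn. Of the 10 clock genes, 0 were called under every one of these, and the lowest adjusted p of any of them was 0.266 (*Per2*, no filter). The count over all genes, 0 in edgeR, was 30 in DESeq2, 45 in DESeq2 with the length offset, 157 without a filter, and 1 to 32 with a library left out, the highest without Pax7KR replicate 3. With the replicate block it was 13, and 0 clock genes were called. Over genes with a mean of 1 CPM or more, samples of the same number did not deviate together (r = 0.0005, 0.055 and -0.065). Samples of unlike number had r from -0.105 to 0.101. This check over many genes cannot exclude a pairing that moves a few of them. Without a filter 1 of the 23 other loop genes, *Wee1*, was called. The log2 fold changes of *Per2* (0.16 to 0.27), *Cry1* (0.18 to 0.34), *Nr1d1* (0.06 to 0.19) and *Dbp* (-0.26 to -0.06) kept their sign in all 15 alternatives. Those of the other 6 turned with a library left out, when *Arntl* reached 0.11, *Clock* -0.0883, *Npas2* -0.22, *Per3* 0.0855, *Cry2* -0.12 and *Nr1d2* 0.11 at the other end. *Arntl* was at -0.0252 without Pax7WT replicate 3 and -0.0208 without Pax7KR replicate 3. Without Pax7WT replicate 1, *Clock* was at 0.0311, *Npas2* at 0.0631, *Per3* at -0.0374 and *Cry2* at 0.0149. Without Pax7KR replicate 1, *Npas2* was at 0.0413 and *Per3* at -0.028. *Nr1d2* was at -0.0025 without Pax7WT replicate 2. The r of *Npas2* against *Dbp* was 0.23 without Pax7KR replicate 1 and 0.10 without Pax7KR replicate 3, and -0.89 without Pax7WT replicate 1. That of *Arntl* ran from -0.83 without Pax7WT replicate 1 to -0.17 without Pax7KR replicate 3, and that of *Nr1d1* from 0.20 without Pax7WT replicate 1 to 0.65 without Pax7WT replicate 3. As a share of TPM, which weights short transcripts more, the leading transcript held 37.9% of *Clock*, 74.1% of *Npas2*, 93.1% of *Cry1*, 83.0% of *Cry2*, 95.8% of *Nr1d1*, 75.1% of *Nr1d2* and 63.4% of *Dbp*. The cause of these changes was not tested.

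With 3 libraries a genotype the 95% intervals of the clock genes reached as far as -0.52 (*Npas2*) and 0.50 (*Cry1*) on the log2 scale, so changes up to these sizes are not excluded for those genes. *Cry1* rests on the fewest reads of the 10.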
